A study of Drosophila melanogaster with 15 samples.

Results

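The genes described here encode the sodium, calcium and cation channels of larval clock neurons and the partners of the sodium leak channel. They were chosen by symbol, as every probe set whose platform annotation gave unc79, unc80, na, cac, para, Ca-alpha1D, Ca-alpha1T, Ih or CngA as its only gene. These 9 genes, of 11982 named on the array, had 11 probe sets of 18769 other than controls. Expression was measured on 15 Affymetrix Drosophila arrays, 3 for each of 5 groups of sorted neurons from third-instar larval brains.

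The first 4 groups held ventral lateral neurons (LNvs), clock cells that number 8 per brain and secrete the peptide encoded by Pdf. They were cyc0 LNvs at zeitgeber time (ZT) 15, with Pdf-RFP in a yw background, per0 LNvs at ZT15, also yw with Pdf-RFP, wild-type LNvs at ZT15 and wild-type LNvs at ZT3, both yw with Pdf-Gal4 and UAS-GFP. The fifth group held neurons labelled through elav-Gal4 and UAS-GFP at ZT15, for which the labels give no yw background. Each day had 12 h with light and 12 h without, so that ZT3 falls 3 h after lights-on and ZT15 falls 3 h after lights-off. The gene cyc encodes an activator of the circadian clock and per a repressor. Both mutants carried a red reporter and wild type a green one, so that genotype and reporter cannot be told apart. The reporter was driven by the Pdf promoter in LNvs and by the pan-neuronal elav driver in the comparison cells. All elav arrays were from ZT15, so that cell type and time cannot be told apart between wild-type LNvs at ZT3 and elav neurons. The mutant LNvs likewise differed from elav neurons in genotype and reporter colour as well as in cell type. About 1000 cells, pooled from dissociated brains, were sorted per array according to the labels. In such bulk samples fewer expressing cells and less RNA per cell cannot be told apart.

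Voltage-gated calcium channels let calcium in when a neuron is depolarised, and at nerve terminals this calcium triggers release of transmitter. Voltage-gated sodium channels carry the action potential. The NALCN channel, encoded by na (narrow abdomen) in flies, passes a sodium leak that keeps neurons excitable, works together with the large proteins UNC79 and UNC80, and is known from adult flies to be needed for robust behavioural rhythms. Channels of the Ih and cyclic-nucleotide-gated families carry mixed cation currents that depend on hyperpolarisation or on cyclic nucleotides.

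The arrays differed in breadth, with 3520 to 5436 probe sets at a log2 value of at least 4 per array. Pdf lay between 12.37 and 13.07 on the 12 LNv arrays and between 3.06 and 4.49 on the elav arrays, although the labels give LNvs as the tissue of both. The clock gene tim, which the CYC activator switches on, averaged 2.98 in cyc0, 10.89 in per0 and 10.89 in wild-type LNvs at ZT15 by its probe set 1634188_a_at. The levels of per and cyc are no check of the mutations, since the labels name no lesion. Values are log2 GCRMA values, a background-corrected scale whose lowest values on these arrays were 2.28 to 2.30. A difference against a group near that end can be understated. The level of a probe set is compared between samples only, not with that of another probe set.

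Of the 11 channel probe sets, 6 reached a log2 value of at least 4 on at least 3 of the 15 arrays and were tested, one for each of unc79, unc80, cac, Ca-alpha1D, Ih and CngA. The transcripts of unc79 and cac were higher in each of the 4 LNv groups than in elav neurons, which were all taken at ZT15. That of unc80 was higher in wild-type LNvs at ZT15, and those of Ih and CngA were higher in cyc0 LNvs. In the comparisons made between LNv groups CngA alone passed, higher in cyc0 than in per0. Neither mutant was compared with wild-type LNvs at ZT3. The other 5 probe sets, for na, para, Ca-alpha1T, cac and CngA, stayed near the lower end of the scale, with 1 of their 75 values at 4 or above.

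**Figure D1:**
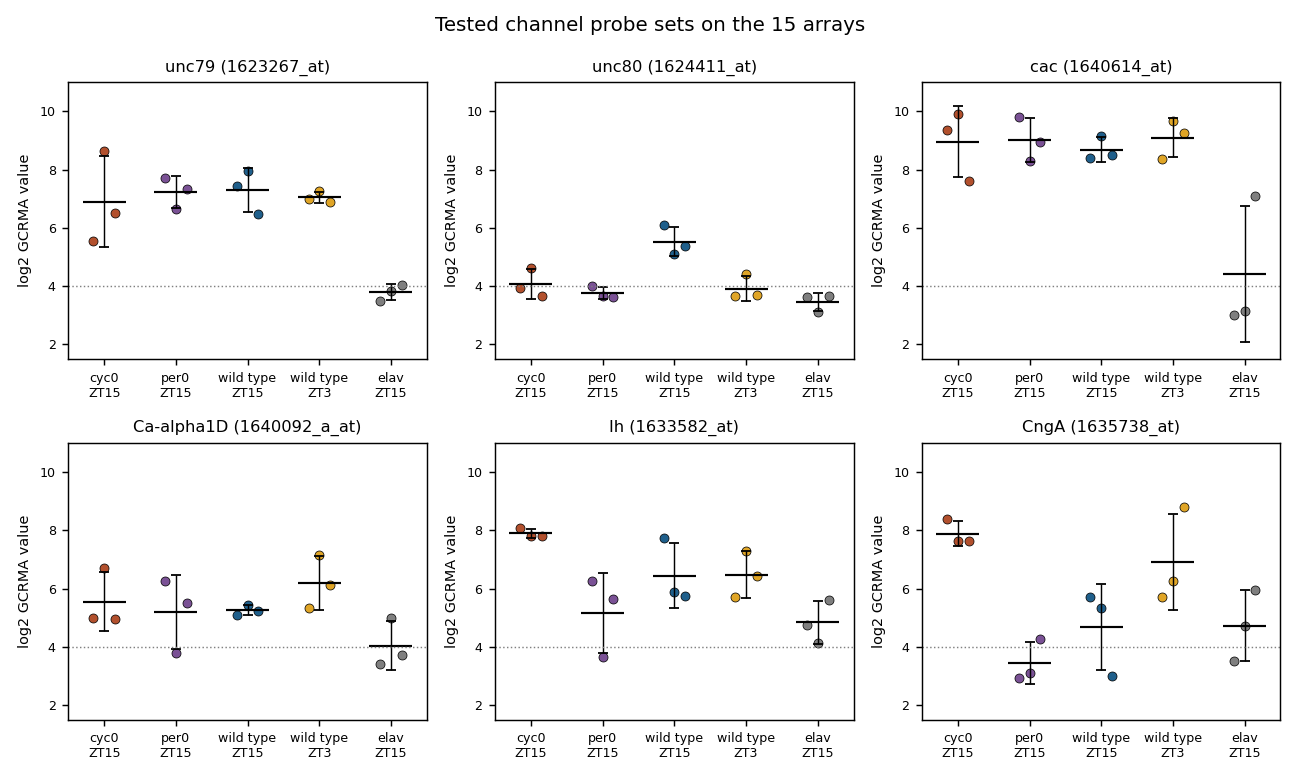
Log2 GCRMA values (vertical axes) of the 6 tested channel probe sets in cyc0, per0 and wild-type LNvs at ZT15, wild-type LNvs at ZT3 and elav neurons at ZT15. Points are arrays, horizontal bars group means, whiskers SD (n = 3), and the dotted line marks log2 4. Every LNv array lies above every elav array for unc79 and cac, the 3 wild-type ZT15 arrays stand highest for unc80, and the 3 cyc0 arrays stand together near 8 for Ih and CngA.

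Among the members of the sodium leak complex, unc79 encodes a large protein that stabilises the channel. Its probe set 1623267_at read 5.56, 8.63 and 6.52 in cyc0 LNvs, 7.73, 6.66 and 7.33 in per0 LNvs, 7.45, 7.96 and 6.48 in wild-type LNvs at ZT15 and 6.98, 7.27 and 6.89 in wild-type LNvs at ZT3, against 3.50, 3.85 and 4.04 in elav neurons. The lowest LNv array thus lay above the highest elav array, and the cyc0 arrays were the most spread. Wild-type LNvs at ZT15 averaged 7.30 ± 0.75 and elav neurons 3.80 ± 0.28 (SD, n = 3 each), a log2 difference of 3.50 (SE 0.66, 11.3-fold, limma adjusted p = 0.00237). The log2 differences from elav neurons were 3.25 (adjusted p = 0.00454) for wild-type LNvs at ZT3, 3.45 (adjusted p = 0.00306) for per0 and 3.11 (adjusted p = 0.00815) for cyc0. These comparisons share the 3 elav arrays. The cyc0 difference was 2.25 without cyc0 replicate 2 (adjusted p = 0.0459) and 3.78 without cyc0 replicate 1 (adjusted p = 0.00749).

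Between the LNv groups no unc79 comparison passed. Its group means were 6.90 in cyc0, 7.24 in per0, 7.30 in wild type at ZT15 and 7.05 in wild type at ZT3, and the arrays of neighbouring groups in this order of levels overlapped, except towards elav neurons. ZT15 minus ZT3 was 0.25, with a 95% interval of -1.15 to 1.65 (adjusted p = 0.991). Mutant minus wild type was -0.06 for per0, with an interval of -1.45 to 1.34 (adjusted p = 0.974), and -0.39 for cyc0, with an interval of -1.79 to 1.01 (adjusted p = 0.796). These intervals leave room for changes of over 2-fold in either direction.

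The gene unc80 encodes the protein that links UNC79 to the channel. Its probe set 1624411_at read 3.93, 4.64 and 3.66 in cyc0 LNvs, 4.02, 3.66 and 3.64 in per0 LNvs, 6.09, 5.12 and 5.38 in wild-type LNvs at ZT15 and 3.66, 4.41 and 3.69 in wild-type LNvs at ZT3, against 3.64, 3.11 and 3.66 in elav neurons. All 3 wild-type ZT15 arrays lay above the other 12. In the order of levels, cyc0, wild type at ZT3, per0 and elav, each of these groups overlapped the next. After rounding, the lowest cyc0 array, the lowest wild-type ZT3 array and the highest elav array all read 3.66. Wild-type LNvs at ZT15 averaged 5.53 ± 0.50 and elav neurons 3.47 ± 0.31, a log2 difference of 2.06 (SE 0.49, 4.18-fold, adjusted p = 0.0101). The other LNv groups differed from elav neurons by 0.45 at ZT3 (adjusted p = 0.619), 0.30 for per0 (adjusted p = 0.754) and 0.61 for cyc0 (adjusted p = 0.549), and the per0 value turned to -0.04 after centring of the arrays.

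Within LNvs no unc80 comparison passed. ZT15 minus ZT3 was 1.61 (SE 0.49, adjusted p = 0.196), per0 minus wild type -1.76 (SE 0.49, adjusted p = 0.0915) and cyc0 minus wild type -1.45 (SE 0.49, adjusted p = 0.118). Both mutant values passed when arrays were weighted by quality (adjusted p = 0.0383 for per0 and 0.0299 for cyc0). Each passed in only this 1 of 23 alternative fits, and the adjusted p reached 0.235 for per0 and 0.292 for cyc0. These 3 comparisons share the wild-type ZT15 arrays. The pore-forming gene of the complex, na, read between 2.32 and 2.48 on all 15 arrays by its only probe set, 1635546_a_at. The group means of na were 2.38 in cyc0, 2.38 in per0, 2.33 in wild type at ZT15, 2.33 in wild type at ZT3 and 2.33 in elav neurons, at the lower end of the scale in every group. These low readings of a single probe set do not show that the na transcript was absent.

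Among calcium channels, cac encodes the pore of the presynaptic channel that drives transmitter release. Its probe set 1640614_at read 9.38, 9.92 and 7.60 in cyc0 LNvs, 9.80, 8.31 and 8.95 in per0 LNvs, 8.41, 9.17 and 8.49 in wild-type LNvs at ZT15 and 8.38, 9.67 and 9.26 in wild-type LNvs at ZT3, against 3.0, 3.15 and 7.11 in elav neurons. The elav arrays were far apart, and the third came close to the lowest LNv array, at 7.60, without overlapping it. That array also had the most probe sets at 4 or above of its group, 5069 against 3520 and 3957, and the part of this breadth in the result was not tested. Wild-type LNvs at ZT15 averaged 8.69 ± 0.42 and elav neurons 4.42 ± 2.33 (SD, n = 3 each), a log2 difference of 4.27 (SE 0.89, 19.3-fold, adjusted p = 0.00436).

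The other LNv groups exceeded elav neurons in cac by log2 differences of 4.69 at ZT3 (adjusted p = 0.00282), 4.60 in per0 (adjusted p = 0.00316) and 4.55 in cyc0 (adjusted p = 0.00499). For wild-type LNvs at ZT15 the difference was 5.62 without elav replicate 3 (adjusted p = 0.000222), 3.56 without elav replicate 1 (adjusted p = 0.0286) and 3.64 without elav replicate 2 (adjusted p = 0.0257). Without elav replicate 3 the differences of the other LNv groups were 6.03 at ZT3, 5.95 in per0 and 5.90 in cyc0, and none of these calls was lost when any elav array was left out. The cyc0 call was lost with no filter (adjusted p = 0.0542) and in a fit to only those 6 arrays (adjusted p = 0.0754). Among LNv groups the means ran from 8.69 to 9.10 and neighbours in that order overlapped. ZT15 minus ZT3 was -0.41, with a 95% interval of -2.29 to 1.47 (adjusted p = 0.98). Another cac probe set, 1640033_at, read 2.33 to 2.61 on all arrays, so that the result rests on 1 of the 2 probe sets of the gene.

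Ca-alpha1D encodes the pore of the L-type calcium channel. Its probe set 1640092_a_at read 4.99, 6.72 and 4.97 in cyc0 LNvs, 6.26, 3.79 and 5.52 in per0 LNvs, 5.09, 5.45 and 5.25 in wild-type LNvs at ZT15 and 5.33, 7.16 and 6.12 in wild-type LNvs at ZT3, against 3.41, 5.00 and 3.74 in elav neurons. Wild-type arrays of both times lay above the elav arrays, while cyc0 and per0 arrays overlapped them. The wild-type ZT3 arrays differed most, with a mean of 6.20 ± 0.92 against 4.05 ± 0.84 in elav neurons, a log2 difference of 2.15 that did not pass (SE 0.71, adjusted p = 0.059). It passed after centring of the arrays (1.90, adjusted p = 0.047) and after quantile normalization (2.10, adjusted p = 0.0296). In all it passed in 6 of 23 alternative fits, and its adjusted p reached 0.231 in the others. The array with the lowest LNv value, per0 replicate 2, had 3694 probe sets at 4 or above, against 4282 and 5436 on the other per0 arrays, and its part in the result was not tested.

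For the T-type channel gene Ca-alpha1T, the probe set 1630042_at read 2.34 to 3.25, with 3.25 on 1 wild-type ZT3 array as its highest value. The sodium channel gene para, which encodes the channel of the action potential, read 2.48 to 4.02 by 1627300_at. Its highest value, 4.02, stood on a wild-type ZT3 array whose partners read 2.51 and 2.71. Neither gene reached the level needed for a test, and these low readings do not show that the transcripts were absent.

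**Figure D2:**
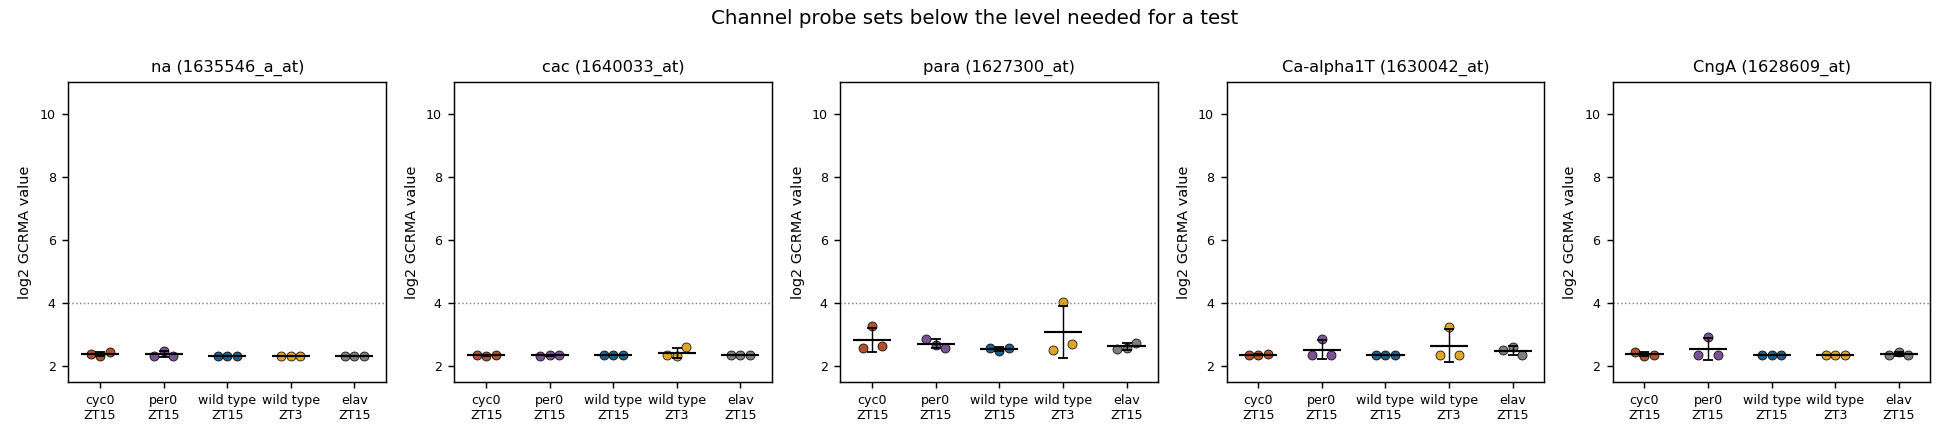
Log2 GCRMA values (vertical axes) of the 5 channel probe sets below the level needed for a test, by group, with points for arrays, bars for means and whiskers for SD (n = 3). All values but 1, the 4.02 of para in wild-type LNvs at ZT3, lie below the dotted line at log2 4.

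Among the mixed cation channels, Ih encodes the fly channel activated by hyperpolarisation. Its probe set 1633582_at read 8.08, 7.81 and 7.80 in cyc0 LNvs, 6.25, 3.64 and 5.63 in per0 LNvs, 7.73, 5.89 and 5.74 in wild-type LNvs at ZT15 and 5.73, 7.31 and 6.42 in wild-type LNvs at ZT3, against 4.76, 4.14 and 5.62 in elav neurons. The cyc0 arrays were the highest and the closest together, and per0 arrays overlapped the elav arrays. The cyc0 mean was 7.90 ± 0.16 and the elav mean 4.84 ± 0.74, a log2 difference of 3.05 (SE 0.71, 8.31-fold, adjusted p = 0.0146). It did not pass without cyc0 replicate 1 (adjusted p = 0.0693), elav replicate 1 (adjusted p = 0.054) or elav replicate 2 (adjusted p = 0.0738).

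For Ih, wild-type LNvs exceeded elav neurons by 1.61 at ZT15 (adjusted p = 0.152) and 1.64 at ZT3 (adjusted p = 0.149), and per0 LNvs by 0.33 (adjusted p = 0.82). The per0 value turned to -0.02 after centring and -0.13 after quantile normalization. Within LNvs, cyc0 minus per0 was 2.72 (SE 0.71, adjusted p = 0.11), and this difference passed after centring (2.70, adjusted p = 0.0354), after quantile normalization (2.96, adjusted p = 0.0241) and with array weights (2.22, adjusted p = 0.00924). It passed in only these 3 of 23 alternative fits, and its adjusted p reached 0.431. The array weights also raised the calls over all probe sets in this comparison from 46 to 817. The difference of cyc0 minus wild type was 1.44 (SE 0.71, adjusted p = 0.279). ZT15 minus ZT3 was -0.03 (95% interval -1.53 to 1.47, adjusted p = 1) and 0.05 after centring.

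CngA encodes a subunit of channels opened by cyclic nucleotides. Its probe set 1635738_at read 8.38, 7.63 and 7.64 in cyc0 LNvs, 2.94, 3.12 and 4.26 in per0 LNvs, 5.73, 5.35 and 2.99 in wild-type LNvs at ZT15 and 5.70, 6.27 and 8.80 in wild-type LNvs at ZT3, against 3.52, 4.71 and 5.95 in elav neurons. The cyc0 arrays lay above all per0, wild-type ZT15 and elav arrays, and overlapped those of wild type at ZT3. All per0 arrays lay below those of wild type at ZT3, a pair of groups that was not tested. The cyc0 mean of 7.88 ± 0.43 exceeded the per0 mean of 3.44 ± 0.72 by a log2 difference of 4.44 (SE 0.85, 21.7-fold, adjusted p = 0.0157). This call was lost without cyc0 replicate 1 (adjusted p = 0.102), per0 replicate 1 (adjusted p = 0.0738) or per0 replicate 2 (adjusted p = 0.0759).

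Against elav neurons, at 4.73 ± 1.22, the cyc0 difference of CngA was 3.16 (adjusted p = 0.0353). It lost its call without cyc0 replicate 1 (adjusted p = 0.141), cyc0 replicate 2 (adjusted p = 0.0826), cyc0 replicate 3 (adjusted p = 0.0502) or elav replicate 2 (adjusted p = 0.0916), and fell to 2.55 without elav replicate 1 (adjusted p = 0.166), while it was 3.77 without elav replicate 3 (adjusted p = 0.0217). Against wild type at ZT15, at 4.69 ± 1.49, the difference was 3.19 and lay at the threshold (SE 0.85, adjusted p = 0.0508), with values of 3.0 after centring (adjusted p = 0.0242) and 3.20 after quantile normalization (adjusted p = 0.0281). It passed in 9 of 23 alternative fits, and its adjusted p reached 0.215 in the others. ZT15 minus ZT3 was -2.23 (SE 0.85, adjusted p = 0.362), and per0 minus wild type was -1.25 (SE 0.85, adjusted p = 0.485). The other CngA probe set, 1628609_at, read 2.33 to 2.93 on all arrays, so that these values rest on 1 of 2 probe sets.

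**Figure D3:**
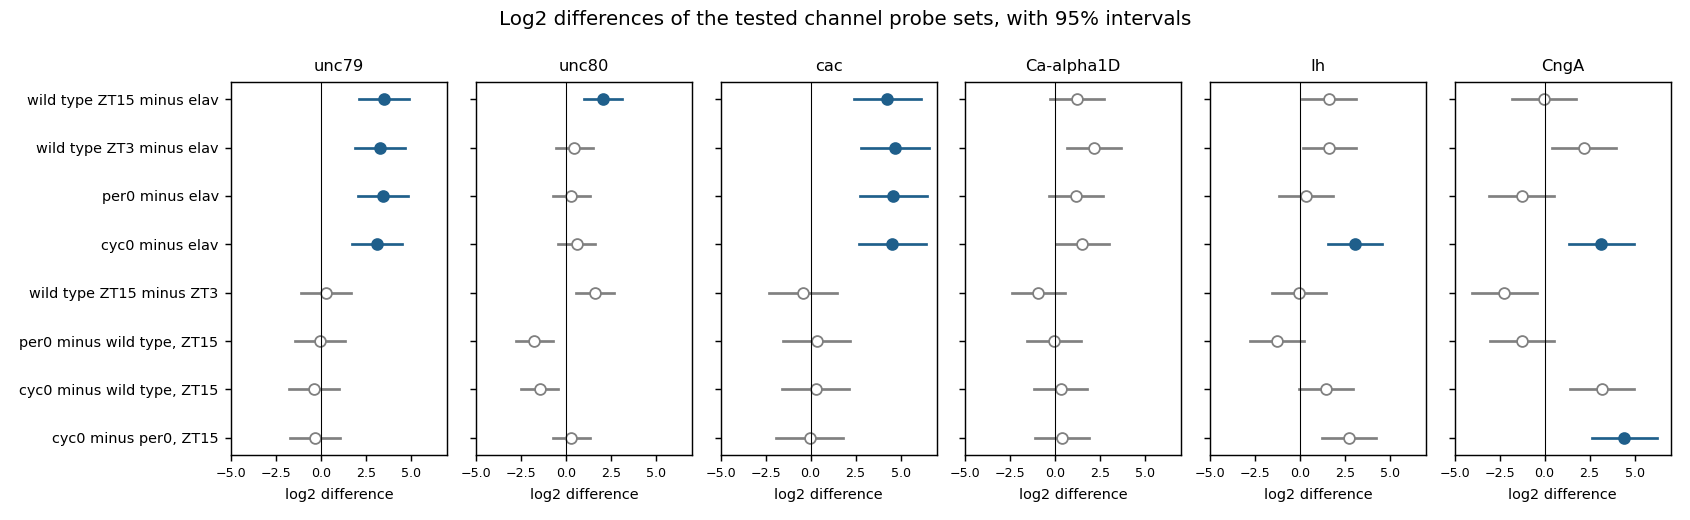
Log2 differences (horizontal axes) of the 6 tested channel probe sets in 8 comparisons, each named on the vertical axis as the first group minus the second, with 95% intervals from the limma fit. Filled points passed an adjusted p of 0.05. The filled points number 11 among the 24 differences from elav neurons and 1, that of CngA in cyc0 minus per0, among the 24 between LNv groups. The differences from elav neurons share the same elav arrays, and unc79 and cac passed in each of those comparisons. Over all probe sets tested, 5.61% to 12.5% were called in the comparisons with elav neurons and 0.789% to 2.9% in those between LNv groups.

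Counted by comparison, 3 of the 6 tested channel probe sets were higher in wild-type LNvs at ZT15 than in elav neurons, where 7.26% of all 5829 probe sets tested were higher, 5.25% lower and 12.5% called in either direction. In wild-type LNvs at ZT3 2 of 6 were higher, where 7.07% of all were higher, 4.13% lower and 11.2% called in either direction. In per0 LNvs 2 of 6 were higher, where 6.91% of all were higher, 3.33% lower and 10.2% called. In cyc0 LNvs 4 of 6 were higher, where 3.41% of all were higher, 2.2% lower and 5.61% called. No channel probe set was lower in any of these 4 comparisons. Between cyc0 and per0 1 of 6 was higher, where 0.343% of all were higher, 0.446% lower and 0.789% called. Between the other LNv groups limma called none of the 6, where 0.789% of all were called between ZT15 and ZT3 (0.429% higher, 0.36% lower), 1.18% between per0 and wild type (0.463% higher, 0.721% lower) and 2.9% between cyc0 and wild type (1.53% higher, 1.37% lower). At an unadjusted p under 0.05 these last 3 counts were 2, 1 and 2 of 6, where 8.84%, 16.5% and 19.4% of all probe sets lay under it. The median log2 difference of the 6 from elav neurons was 1.84 for wild-type LNvs at ZT15, 2.17 at ZT3, 0.74 for per0 and 3.08 for cyc0, against 0.11, 0.16, 0.32 and 0.28 over all probe sets tested. Since 5 of the 11 probe sets were too low for a test, these medians do not stand for all members. The members were chosen with earlier results of these data known, so that the counts and medians beside those of all probe sets are a description only. The 4 comparisons with elav neurons also share the same 3 elav arrays.

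Of the marker lists of other cells, only that of neuroblasts had mean levels per array that did not overlap between LNv groups and elav neurons. Of 6 neuroblast genes, the number at a log2 value of 4 or above on any array was 2 in cyc0, 3 in per0, 1 in wild-type LNvs at ZT15 and 1 at ZT3, against 6 in elav neurons. Their mean level per array ran from 2.54 to 3.91 in LNv groups and from 4.62 to 6.45 in elav neurons, with mira, an adaptor of dividing neuroblasts, at 2.73 in wild-type LNvs at ZT15 and 6.92 in elav neurons. Of 6 tested probe sets of neuron markers, 2 were higher and 1 lower in wild-type LNvs at ZT15 than in elav neurons. Rab3, a synaptic vesicle GTPase gene, averaged 9.0 and 7.06 (adjusted p = 0.0382), and nSyb, a vesicle fusion gene, 6.72 and 4.5 (adjusted p = 0.0478). The transcript of elav, an RNA-binding protein of neurons, averaged 5.58 and 8.75 (log2 difference -3.18, adjusted p = 0.00191), and its relative fne differed by -0.60 (adjusted p = 0.732). Not all of these differences held in the other LNv groups. That of elav was -3.03 in per0 (adjusted p = 0.00306), but -1.0 at ZT3 (adjusted p = 0.304) and -1.01 in cyc0 (adjusted p = 0.366). For nSyb it was 2.36 at ZT3 (adjusted p = 0.04), 0.75 in per0 (adjusted p = 0.555) and 2.2 in cyc0 (adjusted p = 0.0798). Rab3 passed in each group. Over 6 neuron markers the mean level per array was 6.05 to 8.13 in LNvs and 5.98 to 6.18 in elav neurons. Over 7 glia markers the mean level per array was 3.01 to 4.89 in LNvs and 3.65 to 4.75 in elav neurons, but single markers differed between groups. Gs2, a glutamine synthetase gene, averaged 4.57 in cyc0, 3.91 in per0, 6.90 in wild type at ZT15 and 7.54 at ZT3, against 4.87 in elav neurons. It was higher in wild-type LNvs than in elav neurons at ZT15 (log2 difference 2.03, adjusted p = 0.0346) and ZT3 (2.67, adjusted p = 0.00846), and lower than in wild type at ZT15 in per0 (-3.0, adjusted p = 0.0225) and cyc0 (-2.33, adjusted p = 0.0448). The sodium pump subunit gene nrv2 was lower than in elav neurons in wild type at ZT15 (-2.21, adjusted p = 0.0222) and in per0 (-1.92, adjusted p = 0.049). The glial regulator repo averaged 2.98 at ZT15 and 5.61 at ZT3 in wild type (adjusted p = 0.191). Of 5 hemocyte, 3 fat body, 2 muscle and 1 photoreceptor markers, none reached 4 on all arrays of any group. On any array, the hemocyte genes at 4 or above numbered 3 in cyc0, 0 in per0, 1 in wild type at ZT15, 1 at ZT3 and 2 in elav neurons. Their mean level per array was 2.33 to 3.84 in cyc0 and 2.33 to 2.53 in per0. At most 1 fat body, 1 muscle and 1 photoreceptor marker reached 4 on any array of a group. The part of these cells in the channel differences was not tested.

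Genes that act with the channels were taken as 3 lists. Accessory subunits and relatives had 9 tested probe sets for 9 of 14 listed genes, and 1 of them, for CngB, passed against elav neurons in each LNv group, with none lower. That 1 of 9 stands beside 12.5%, 11.2%, 10.2% and 5.61% of all probe sets called there for wild type at ZT15, wild type at ZT3, per0 and cyc0. CngB, a gene of the cyclic-nucleotide-gated family, read 6.47, 6.47 and 6.46 in cyc0 LNvs, 6.91, 5.86 and 7.18 in per0 LNvs, 6.38, 7.03 and 8.27 in wild-type LNvs at ZT15 and 6.18, 5.74 and 5.91 in wild-type LNvs at ZT3, against 3.39, 4.13 and 4.74 in elav neurons. All 12 LNv arrays lay above the elav arrays. Its log2 differences from elav neurons were 3.14 in wild type at ZT15 (adjusted p = 0.00186), 1.86 at ZT3 (adjusted p = 0.0422), 2.56 in per0 (adjusted p = 0.00788) and 2.38 in cyc0 (adjusted p = 0.0179). The ZT3 call was lost with no filter (adjusted p = 0.089), with a trend and robust prior (0.0574) and in a fit to only those 6 arrays (0.0628). It was also lost after centring (adjusted p = 0.0657) and with any wild-type ZT3 array left out (adjusted p = 0.118, 0.0922 and 0.0832). The ZT3 call was also lost without elav replicate 1 or 2 (adjusted p = 0.161 and 0.0923), wild-type ZT15 replicate 2 (0.0508), per0 replicate 1 (0.0564) or cyc0 replicate 1 (0.0579). The cyc0 call was lost without cyc0 replicate 1 or 2 (adjusted p = 0.0705 and 0.0559) or elav replicate 1 or 2 (adjusted p = 0.0913 and 0.054), and in a fit to only those 6 arrays (0.0528).

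The other accessory genes did not pass in any of the 8 comparisons by limma. Mid1, also called Nlf-1 and known to help the leak channel reach the membrane, read 2.78 to 4.81 by 1641028_at, and its lowest adjusted p was 0.299. Its other probe set, 1641483_at, read at most 3.35 and was not tested. By 1628331_at, the calcium channel beta subunit gene Ca-beta had means of 4.68 in cyc0, 4.23 in per0, 4.75 in wild type at ZT15 and 5.44 at ZT3, against 6.57 in elav neurons, where its arrays read 9.15, 4.40 and 6.17. Its probe sets 1638440_at and 1640620_at read at most 2.82 and 3.6 and were not tested. Its lowest adjusted p was 0.0991, for per0 against elav neurons (log2 difference -2.35). The alpha-2-delta gene stj had means of 8.78, 8.76, 7.74 and 7.73 in the same LNv groups and 7.42 in elav neurons (lowest adjusted p = 0.197), and the sodium channel partner tipE 7.79, 6.31, 6.29 and 6.57 against 6.88 (lowest adjusted p = 0.236). The median of the 9 probe sets against elav neurons was 0.08 for wild-type LNvs at ZT15, where that of all probe sets was 0.11.

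Of the list of calcium handling genes, 9 probe sets of 5 genes among the 12 listed were tested. Calx, the sodium-calcium exchanger gene, and SERCA, the calcium pump gene of the endoplasmic reticulum, passed in at least 1 comparison. Against elav neurons 1 of the 9 passed for wild type at ZT15 and 1 at ZT3, where 12.5% and 11.2% of all probe sets were called. For per0 and cyc0 0 passed, where 10.2% and 5.61% of all were called. Between LNv groups 1 passed for ZT15 against ZT3 (0.789% of all) and 1 for cyc0 against wild type (2.9% of all). By 1623234_s_at, a probe set whose suffix marks probes that can match more than 1 transcript, Calx read 3.70, 2.68 and 2.81 in cyc0 LNvs, 4.20, 4.06 and 5.53 in per0 LNvs, 6.17, 6.45 and 6.71 in wild-type LNvs at ZT15 and 3.64, 3.88 and 4.32 in wild-type LNvs at ZT3, against 3.70, 3.01 and 3.54 in elav neurons. The 3 wild-type ZT15 arrays stood above the other 12. Calx was higher in wild-type LNvs at ZT15 than in elav neurons (log2 difference 3.03, adjusted p = 0.00146) and than at ZT3 (2.50, adjusted p = 0.0311), and lower in cyc0 than in wild type (-3.38, adjusted p = 0.00157). The per0 difference of -1.85 did not pass (adjusted p = 0.0984).

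The time difference of Calx lost its call without wild-type ZT3 replicate 1, 2 or 3 (adjusted p = 0.112, 0.124 and 0.0599) or wild-type ZT15 replicate 2 or 3 (adjusted p = 0.0878 and 0.116), and in a fit to only those 6 arrays (adjusted p = 0.137). SERCA was higher in wild-type LNvs at ZT3 than in elav neurons by 1641059_at, at 8.39, 7.11 and 7.77 against 5.40, 4.90 and 5.62 (log2 difference 2.45, adjusted p = 0.00841). The elav arrays were from ZT15, and at that time wild-type LNvs differed from them by 1.18 by this probe set (adjusted p = 0.175). Its ZT15 minus ZT3 difference was -1.27 (adjusted p = 0.493). By 1636669_at, wild-type LNvs at ZT3 differed from elav neurons by -0.10 (adjusted p = 0.974). The store-operated calcium entry genes Stim and Orai and the plasma membrane calcium pump gene PMCA did not pass in any comparison (lowest adjusted p = 0.155 for Stim, 0.472 for Orai and 0.107 for PMCA).

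In the list of TRP and other non-selective channels, with 12 of 14 genes matched, 1 of 16 probe sets was tested, for Trpm, a TRP channel of the melastatin family. By 1634860_at Trpm read 2.77, 2.69 and 2.75 in cyc0 LNvs, 4.05, 2.88 and 3.76 in per0 LNvs, 5.76, 4.66 and 6.39 in wild-type LNvs at ZT15 and 3.28, 3.23 and 2.75 in wild-type LNvs at ZT3, against 2.78, 2.76 and 2.75 in elav neurons. The wild-type ZT15 arrays stood above the others. Only these and 1 per0 array reached 4, so that Trpm was tested because of the group where it is high, and the cyc0 and elav arrays lay near the lower end of the scale. Its differences are therefore a description of that choice. The log2 difference of wild-type LNvs at ZT15 was 2.84 from elav neurons (adjusted p = 0.00191) and 2.51 from ZT3 (adjusted p = 0.0285). Mutant minus wild type was -2.87 for cyc0 (adjusted p = 0.00516) and -2.04 for per0 (adjusted p = 0.0625). Its time difference lost its call without wild-type ZT3 replicate 1, 2 or 3 (adjusted p = 0.0789, 0.091 and 0.108) or wild-type ZT15 replicate 1 or 3 (adjusted p = 0.0686 and 0.127). In fits to only the 6 arrays compared, the time difference (adjusted p = 0.216) and the cyc0 difference (adjusted p = 0.0763) both lost theirs. The other 3 Trpm probe sets stayed at 3.57 or below.

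**Figure D4:**
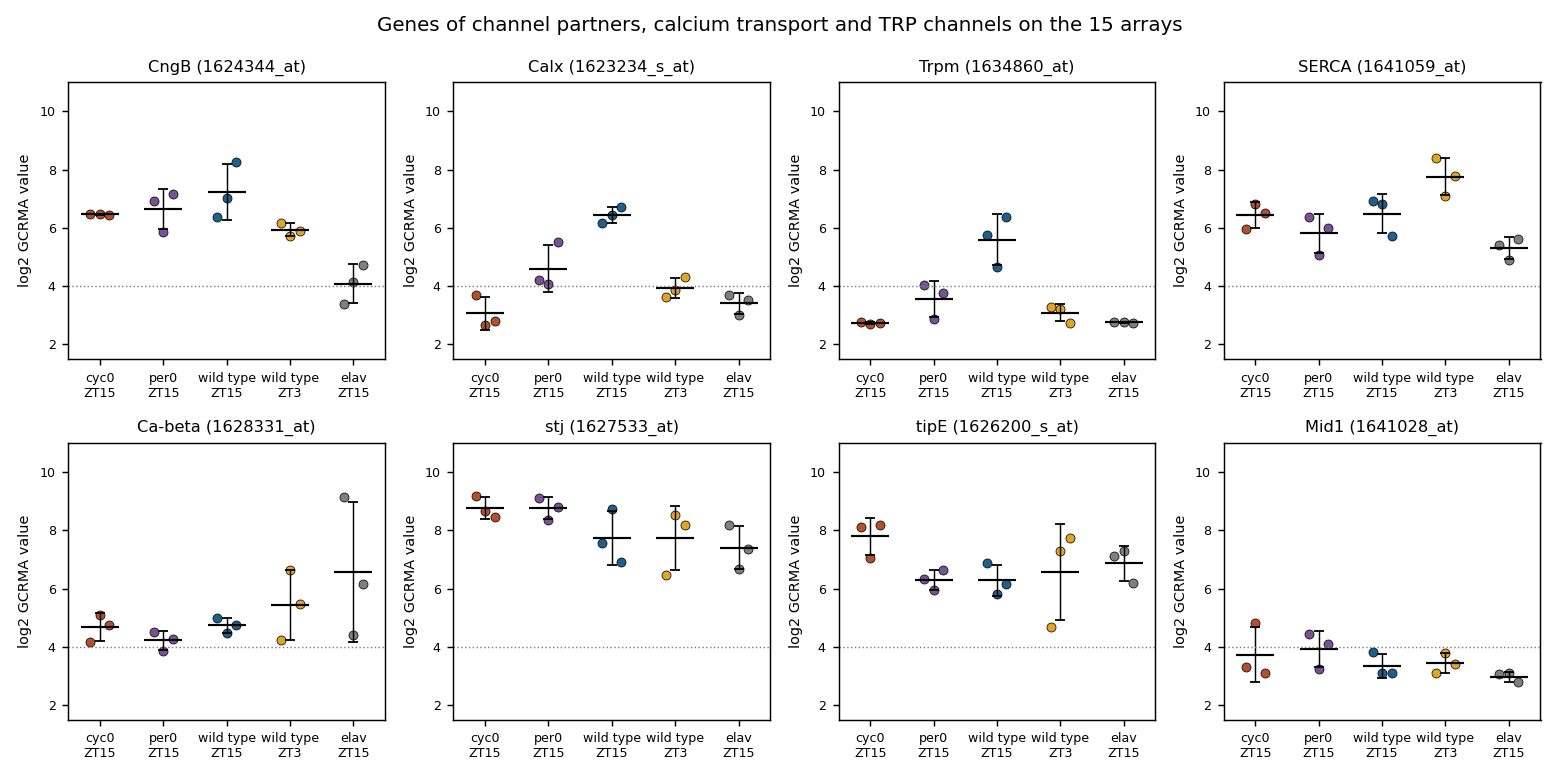
Log2 GCRMA values (vertical axes) of genes from the 3 lists by group, with points for arrays, bars for means, whiskers for SD (n = 3) and a dotted line at log2 4. CngB is above the elav arrays on all 12 LNv arrays, and Calx and Trpm stand highest on the 3 wild-type ZT15 arrays.

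Over the 15 arrays, pairs of the 6 tested channel genes had Pearson correlations of log2 values between -0.05 and 0.85. The correlation was 0.85 between unc79 and cac, 0.70 between Ih and CngA, and 0.51 between unc79 and unc80, while CngA correlated at 0.15 with unc79 and -0.05 with unc80. These values describe 15 arrays that share groups and normalization. The correlation of the 6 genes with the number of probe sets at 4 or above per array was 0.39 for cac at most.

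The named genes most like unc79 over the 15 arrays were futsch, a microtubule-associated protein gene (r = 0.934), Pfk, the phosphofructokinase gene (r = 0.91), and CG11590 (r = 0.899). Mean levels of futsch were 8.84 in cyc0, 10.05 in per0, 9.77 in wild type at ZT15 and 10.20 at ZT3, against 4.68 in elav neurons. Those most like cac were CG8320 (r = 0.947), bai (r = 0.943) and Men, a malic enzyme gene (r = 0.937). Those most like unc80 were hoe1 (r = 0.934), dj-1beta (r = 0.915) and CG10089 (r = 0.908), with hoe1 at 3.50 in cyc0, 2.54 in per0, 6.24 in wild type at ZT15 and 2.79 at ZT3, against 2.90 in elav neurons. No such genes are given for na, whose only probe set did not reach the level needed for a test.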

How the data were processed

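The authors deposited 1 log2 value per probe set and array. Per the submitters' processing notes these come from GCRMA. Its version and which arrays were normalized together are not stated in the labels. The method models background from probe sequence, so that weak transcripts gather at the lower end. Groups came from the sample titles, which call the 3 arrays of a group biological replicates. The sorting protocol speaks of RFP throughout, although wild type and elav neurons carried GFP by their genotypes.

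After removal of 100 control probe sets, 13647 were annotated with a single gene, 402 with several and 4720 with none. Probe sets at log2 4 or above on at least 3 of the 15 arrays (5829) were fitted with a mean per group over all 15 arrays (lmFit and eBayes of limma 3.58.1, R 4.3.3, prior degrees of freedom 7.46). The p-values, two-sided, were adjusted by Benjamini-Hochberg within each of 8 comparisons, at 0.05. These were each LNv group against elav neurons, wild type at ZT15 against ZT3, each mutant against wild type at ZT15, and cyc0 against per0. The number of arrays limits the precision. The fit was also run on simulated data, drawn as independent normal values with planted changes. Such data do not copy the differing breadth of these arrays or the gathering of values at the lower end. The members and lists were chosen with earlier results of these data known. The text names every member, list genes that passed in any comparison, Mid1, Ca-beta, stj and tipE, and the 3 genes most correlated with unc79, unc80 and cac. Stim, Orai, PMCA, tim and the markers were named after their values were seen. Alternatives were no filter, a stricter filter at log2 5, centring, quantile normalization, a trend and robust prior, array weights, only the groups compared, a replicate block and leaving out each array.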

Additional observations from a re-analysis of the deposited data

How the results depend on the processing

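The 12 channel calls kept their direction under all 23 alternatives, and 7 of them also stayed past the threshold throughout. The other 5 were lost under at least 1 alternative, namely those of unc79, cac, Ih and CngA between cyc0 and elav neurons and that of CngA between cyc0 and per0. For unc79 this was in the fit to only those arrays (adjusted p = 0.0763). Between cyc0 and elav neurons, where 4 channel probe sets passed, 1 passed with no filter, 2 in a fit to the 6 arrays compared, and 2 to 4 with an array left out. Between cyc0 and per0, where 1 passed, 0 passed with no filter, 2 after centring, 2 after quantile normalization, 2 with array weights, and 0 to 1 with an array left out. Between cyc0 and wild type, where none passed, 1 passed with the stricter filter, 1 after centring, 1 after quantile normalization, 2 with array weights, and 0 to 1 with an array left out. Between per0 and wild type 1 passed with array weights. The weights were estimated with a warning on convergence. The cause of these changes was not tested. Counts over all probe sets moved by over 1.5 times in each comparison. Against elav neurons they were 729 for wild type at ZT15 (454 with no filter), 653 at ZT3 (314 without wild-type ZT3 replicate 2), 597 for per0 (246 without per0 replicate 1, 1286 with array weights) and 327 for cyc0 (166 without cyc0 replicate 1, 826 with array weights). When only the 2 groups compared were fitted, 6 passed in place of 46 between ZT15 and ZT3, 6 in place of 69 between per0 and wild type, and 35 in place of 169 between cyc0 and wild type, where array weights gave 456 and 943 for the mutants. Between cyc0 and per0 46 passed, 20 without cyc0 replicate 1 and 817 with array weights. Centring moved the median difference of all probe sets from elav neurons to -0.03 for per0 (0.32 as deposited), -0.09 for cyc0 (0.28) and -0.10 for wild type at ZT3 (0.16). The share of calls that were higher was then 50.7% in place of 67.5%, 43.4% in place of 60.9% and 52.4% in place of 63.1%, and 41.1% in place of 52.7% between cyc0 and wild type. After quantile normalization it was 54.4% for per0 and 50.9% for wild type at ZT3.

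No clear pairing of the arrays by replicate number was seen. No pair of groups had correlations over 0.1 for all 3 numbers, and single correlations ran from -0.192 to 0.196. An array was most like its own number in 23 of 60 comparisons. With 3 arrays per group this check cannot show that no pairing by replicate number exists. With the number as a replicate block the counts of channel probe sets stayed at 3, 2, 2 and 4 against elav neurons and 1 between cyc0 and per0, and 46 probe sets in place of 69 passed between per0 and wild type.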
